A study of Mus musculus with 12 samples.

Results

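The 7 genes described here are 6 receptors of the SLAM family (Slamf1, Cd48, Ly9, Cd84, Slamf6 and Slamf7) and Sh2d1a, which encodes SAP, an adaptor of several of them. They were taken by gene symbol from the 55401 genes of the deposited tables, and all 7 had enough counts to be tested. Their levels were measured by sequencing of polyadenylated RNA from CD4 T cells sorted from the spleens of C57BL/6 mice 21 days after infection with Leishmania donovani, the parasite of visceral leishmaniasis. One population, called TLCP here, held CD4 T cells sorted as LAG-3+, CXCR5+ and PD-1lo/int. The other, called Tfh here, held T follicular helper cells sorted as PD-1hi and CXCR5+, and the series description calls these mostly germinal center Tfh cells. Each population had 6 libraries, and 6 mice are stated. All mice were infected, so no group shows the levels without infection.

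SLAM family receptors are immunoglobulin-like surface proteins of blood cells, and most of them bind the same receptor on a neighbouring cell. SAP is a small SH2 domain adaptor that docks on tyrosine motifs in the tails of several of them and recruits the kinase Fyn. Where SAP is missing the same tails can bind phosphatases such as SHP-1, SHP-2 and SHIP-1. In T cells SAP is needed for lasting contact with B cells and for germinal center help, and its loss causes X-linked lymphoproliferative disease in humans.

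The libraries held 6939770 to 12688306 reads assigned to genes, and 12015 genes were tested. Levels are CPM, counts per 1000000 assigned reads scaled by TMM, a method that centres the bulk of genes. Of all genes tested, 33.2% differed between the populations at an adjusted p under 0.05 (edgeR quasi-likelihood test, two-sided, Benjamini-Hochberg), 16.8% higher and 16.4% lower in TLCP. Of 8 T cell markers, all were detected in every library, 7 were lower in TLCP and the median log2 fold change was -0.46 with TMM. Their summed TPM (a level scaled by gene length and library, as deposited) was 4569 to 5928 in TLCP and 4786 to 7305 in Tfh, and these ranges overlapped. TPM totals include a ribosomal RNA-like gene that held 12.9% to 24.1% of counts in TLCP libraries and 16.6% to 30.9% in Tfh libraries. A larger share of it lowers the TPM of the other genes of that library. Genes of other cells were also present. The summed TPM of 10 B cell genes was 409 to 1809 in TLCP and 125 to 414 in Tfh, and 8 of the 10 were higher in TLCP. For 8 plasma cell genes the sum was 633 to 3374 in TLCP and 55.6 to 171 in Tfh, and all 6 that could be tested were higher. For 6 basophil and mast cell genes it was 43.8 to 170 and 0.0944 to 9.5, with all 5 tested genes higher, among them Mcpt8 (37.9-fold) and Prss34 (21.1-fold). For 10 macrophage, monocyte and dendritic cell genes it was 49.4 to 200 and 28.3 to 98.9, with 2 of 5 tested genes higher and Lyz2 and Cd68 not called. For 6 genes of CD8 T, NK and NKT cells it was 11.6 to 28.1 and 14.1 to 22.6, with 1 of 4 tested genes lower (Klrb1c, 2.75-fold), 0 higher (1, Cd8a, with the replicate block) and Cd8b1 not called. None of these marker genes was at 0 in all libraries of a population. No label names a batch, but libraries numbered 1 to 3 and libraries numbered 4 to 6 stood apart within each population, so values are also given within these sets, where 27.6% and 22.8% of genes were called.

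Of the 7 genes, 5 differed between the populations. Slamf7, Slamf1 and Cd48 were higher in TLCP, and Sh2d1a and Slamf6 were lower. Ly9 and Cd84 did not pass the test. The share called, 5 of 7, stands beside 33.2% of all genes. The CPM ranges of the 2 populations did not overlap for 4 of the 7 (Slamf1, Slamf7, Cd48 and Sh2d1a), against 17.2% of all genes tested. Of these 4 genes 3 were higher and 1 was lower in TLCP, beside 8.3% and 8.86% of all genes. The median log2 fold change of the 7 genes was 0.02, against -0.0041 over all genes tested.

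The 6 receptor genes lie side by side on chromosome 1 of GRCm38, between 171588624 and 171953170, and Sh2d1a lies on chromosome X from 42502453 to 42529330 on the plus strand. From left to right the receptors are Ly9 (171588624 to 171607410, minus strand), Slamf7 (171632403 to 171653035, minus strand), Cd48 (171682009 to 171705258, plus strand), Slamf1 (171767127 to 171801184, plus strand), Cd84 (171839697 to 171890718, plus strand) and Slamf6 (171917515 to 171953170, plus strand). All 7 are protein-coding genes. Promoter sequences from RefSeq (GRCm38.p6) matched 5 of the 7 by symbol: Slamf1, Cd48, Cd84, Slamf6 and Slamf7. The stretch from 250 to 11 bases before the RefSeq start, 240 bases, is shown for the 4 receptors that differed, so that the genes that were higher in TLCP can be set beside Slamf6. Sequences run 5′ to 3′ on the strand of the gene, and capitals mark matches to the motifs named after them.
Slamf7, chr1:171649010-171649249, minus strand: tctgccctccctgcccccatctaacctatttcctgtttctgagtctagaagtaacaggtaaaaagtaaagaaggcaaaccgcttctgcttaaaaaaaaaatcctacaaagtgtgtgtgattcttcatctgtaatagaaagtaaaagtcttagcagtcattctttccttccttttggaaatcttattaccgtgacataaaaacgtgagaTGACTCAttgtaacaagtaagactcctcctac
Slamf1, chr1:171766882-171767121, plus strand: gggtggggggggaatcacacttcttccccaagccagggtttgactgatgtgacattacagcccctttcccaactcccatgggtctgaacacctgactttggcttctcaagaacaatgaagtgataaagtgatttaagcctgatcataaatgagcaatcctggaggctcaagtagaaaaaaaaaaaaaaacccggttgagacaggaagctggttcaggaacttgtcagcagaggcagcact
Cd48, chr1:171681742-171681981, plus strand: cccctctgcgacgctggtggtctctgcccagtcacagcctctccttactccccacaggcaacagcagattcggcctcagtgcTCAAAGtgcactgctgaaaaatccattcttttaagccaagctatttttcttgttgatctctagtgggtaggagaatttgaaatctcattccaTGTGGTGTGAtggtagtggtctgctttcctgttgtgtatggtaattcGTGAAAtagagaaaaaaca
Slamf6, chr1:171917212-171917451, plus strand: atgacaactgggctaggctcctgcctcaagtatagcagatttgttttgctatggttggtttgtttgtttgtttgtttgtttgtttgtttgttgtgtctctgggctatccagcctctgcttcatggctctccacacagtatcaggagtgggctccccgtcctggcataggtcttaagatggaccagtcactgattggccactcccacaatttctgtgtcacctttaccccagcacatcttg
The letters searched, on both strands, were CTTTGA (TCF/LEF), GGTGTGA (T-box), TGTGGT (RUNX), TGANTCA (AP-1), TTCNNNGAA (STAT), GTGAAA (Blimp-1) and, for IRF, GAAA followed after any 2 bases by GAAA. The Slamf7 window held 1 match, to the AP-1 letters, beginning 42 bases before the start, and 6.58% of the 32851 promoter windows of the same length held one. The Cd48 window held a TCF/LEF match on the minus strand 168 bases before the start, a RUNX match at 76 bases that overlaps a T-box match at 73 bases, and a Blimp-1 match at 29 bases. The shares of all windows with these letters were 13.5% for TCF/LEF, 13.6% for RUNX, 3.22% for T-box and 10.7% for Blimp-1. The Slamf1 and Slamf6 windows held none of these letters, and for STAT and IRF, held by 6.77% and 2.87% of all windows, no match was found in any of the 4. The Cd84 window, not shown, held an AP-1 match at 229 bases and a RUNX match at 45 bases. None of the windows overlaps an exon of its own gene in GENCODE M21. The Slamf7 window lies inside the longer span that GENCODE gives the gene, and the Cd48 window reaches into an exon of A630035G10Rik, a noncoding transcript on the other strand.

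Sh2d1a, the SAP gene, was lower in TLCP in all 6 numbered pairs. Its CPM in TLCP libraries 1 to 6 was 100.3, 96.0, 89.0, 73.5, 61.8 and 55.4, and in Tfh libraries 1 to 6 it was 214, 213, 245, 161, 174 and 176. The lowest Tfh library was above the highest TLCP library. TLCP averaged 79.3 ± 18.6 CPM against 197 ± 31.9 CPM for Tfh (SD, n = 6 each). The log2 fold change was -1.32, with SE 0.158 and a 95% confidence interval of -1.66 to -0.97 (edgeR adjusted p = 4.0e-05), which is 2.49-fold lower. Within libraries 1 to 3 the log2 fold change was -1.23 and within libraries 4 to 6 it was -1.44. SAP is a lymphocyte gene, and the T cell markers fell less in the same libraries, with the median log2 fold change of -0.46 given above. Their part in the fall of Sh2d1a was not tested. In bulk RNA fewer cells that carry a transcript and less of it per cell cannot be told apart. The 3' end of the Sh2d1a span overlaps that of Tenm1 by 1465 bases on the opposite strand, and with unstranded counts the log2 fold change was -1.32 as well.

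Slamf7, which encodes CRACC (CS1), a receptor of NK cells, activated lymphocytes and plasma cells, had the largest fold change of the 7 genes. Its CPM in TLCP libraries 1 to 6 was 53.5, 46.2, 53.3, 94.0, 106 and 95.5, and in Tfh libraries 1 to 6 it was 18.1, 17.8, 15.6, 21.5, 23.3 and 28.0. Every TLCP library was above every Tfh library, and within TLCP libraries 4 to 6 were above libraries 1 to 3. TLCP averaged 74.7 ± 26.4 CPM against 20.7 ± 4.52 CPM for Tfh (SD, n = 6 each). The log2 fold change was 1.85, with SE 0.248 and a 95% confidence interval of 1.31 to 2.40 (edgeR adjusted p = 0.000155), which is 3.61-fold higher.

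Plasma cells carry Slamf7, and the tested genes listed for plasma cells were also higher in TLCP. Jchain, which encodes the joining chain of secreted antibodies, averaged 1533 ± 883 CPM in TLCP against 99.0 ± 46.6 in Tfh, and Xbp1, a transcription factor of secretory cells, 102 ± 34.5 against 50.2 ± 6.95 CPM (SD, n = 6 each). The listed genes did not all move together. Prdm1, 1 of them, was 92.9 to 131 CPM over the TLCP libraries, where Jchain was 550 to 3012 CPM. Which cells made Xbp1 and Prdm1 was not tested. Cd79a and Cd79b, B cell receptor chains, were 4.26-fold and 4.32-fold higher in TLCP. Among the TLCP libraries, library 5 had both the highest summed TPM of the 8 plasma cell genes (3374) and the highest Slamf7 (106 CPM), and library 2 had the lowest of both (633 and 46.2 CPM). Library 4 was high in both (2426 and 94.0 CPM), while library 1 had a larger plasma cell sum than library 6 (1848 and 1347) with less Slamf7 (53.5 and 95.5 CPM). Without TLCP libraries 4 and 5, which had the highest share of immunoglobulin, B cell and plasma cell counts, the log2 fold change of Slamf7 was 1.58 (edgeR adjusted p = 0.000282). Both belong to libraries 4 to 6, so this fit, also used for other genes below, leaves the sets unbalanced between the populations. Within libraries 1 to 3 the log2 fold change of Slamf7 was 1.57 and within libraries 4 to 6 it was 2.0. How much of the Slamf7 signal came from plasma cells was not tested.

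**Figure D1:**
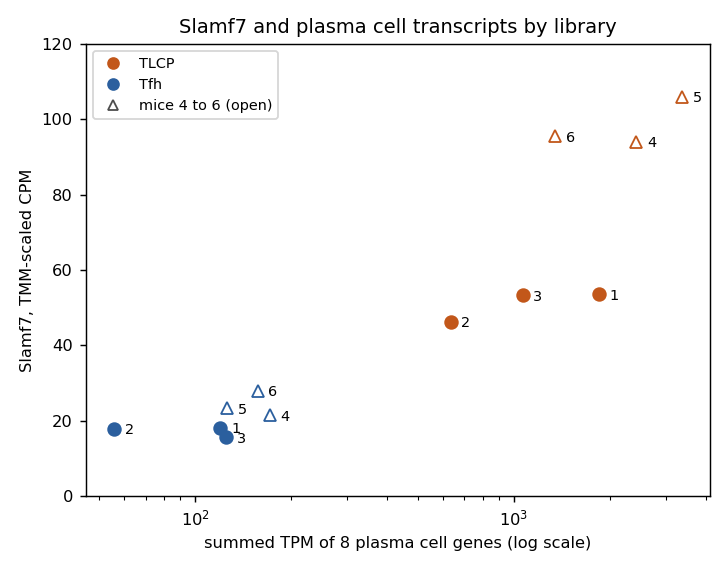
Slamf7 level (y axis, TMM-scaled CPM, from 0) against the summed TPM of 8 plasma cell genes (x axis, log scale) in each library, with TLCP in orange, Tfh in blue, open triangles for libraries 4 to 6, and the library number beside each point. Both values are higher in every TLCP library than in every Tfh library, and among TLCP libraries 5 is highest in both (3374 TPM, 106 CPM) and 2 lowest in both (633 TPM, 46.2 CPM), while 1 and 6 differ in opposite directions.

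Slamf1, which encodes CD150 (SLAM), the self-binding receptor that gave the family its name, was higher in TLCP in all 6 pairs. In TLCP libraries 1 to 6 it was 67.6, 90.4, 79.9, 91.9, 114 and 132 CPM, and in Tfh libraries 1 to 6 it was 41.9, 37.9, 41.8, 47.3, 46.9 and 52.0 CPM. The spread was wide within TLCP and narrow within Tfh, and the ranges did not overlap. TLCP averaged 96.1 ± 23.6 CPM against 44.6 ± 5.03 CPM for Tfh (SD, n = 6 each). Slamf1 thus differed by a log2 fold change of 1.11, with SE 0.141 and a 95% confidence interval of 0.81 to 1.41 (edgeR adjusted p = 2.3e-05), which is 2.15-fold. B cells carry Slamf1 too, and their transcripts were higher beside it. Without TLCP libraries 4 and 5 the log2 fold change was 1.05 (edgeR adjusted p = 0.00036), and within libraries 1 to 3 and 4 to 6 it was 0.97 and 1.2. TLCP library 6 had both the highest summed TPM of the 10 B cell genes (1809) and the highest Slamf1. Without library 6 the log2 fold change was 0.99 (edgeR adjusted p = 2.5e-06). The part of B cells in the Slamf1 difference was not tested.

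Cd48 encodes a lipid-anchored protein with no tail of its own, the partner of CD2 and CD244. It was 135, 135, 123, 157, 159 and 185 CPM in TLCP libraries 1 to 6 and 105, 100.3, 104, 116, 116 and 114 CPM in Tfh libraries 1 to 6. The change was small but the ranges did not overlap, at 149 ± 22.4 against 109 ± 6.79 CPM (SD, n = 6 each). Cd48 differed by 0.45 on the log2 scale, with SE 0.0856 and a 95% confidence interval of 0.27 to 0.63 (edgeR adjusted p = 0.000403), which is 1.37-fold. CD48 is found on most blood cells, B cells included, and without TLCP libraries 4 and 5 the log2 fold change was 0.40 (edgeR adjusted p = 0.00614). TLCP library 6 had both the highest summed TPM of the 10 B cell genes and the highest Cd48. Without library 6 the log2 fold change was 0.37 (edgeR adjusted p = 0.000903). The part of B cells was not tested. The size of the Cd48 change depended on the scaling, from 0.45 with TMM to 0.63 with scaling by totals alone and 0.72 on the log2(TPM + 1) scale (limma). These 2 scales moved the median of all genes tested from -0.0041 to 0.17 and 0.25, so relative to that median Cd48 changed by about as much on each. Taking off the median centres the bulk of genes as TMM does, so that likeness is no separate check. Totals alone called 26.7% of genes higher and 7.43% lower in TLCP, and the log2(TPM + 1) scale 24.9% and 3.71%.

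Slamf6, which encodes Ly108, a self-binding receptor that supports contact between T and B cells, was lower in TLCP. In TLCP libraries 1 to 6 it was 445, 417, 394, 361, 304 and 245 CPM, and in Tfh libraries 1 to 6 it was 555, 524, 488, 462, 420 and 395 CPM. The TLCP library was the lower one in all 6 pairs, but the ranges of the populations overlapped, and libraries 4 to 6 were lower than libraries 1 to 3 in both. TLCP averaged 361 ± 75.0 CPM against 474 ± 60.8 CPM for Tfh (SD, n = 6 each). Slamf6 differed by a log2 fold change of -0.39, with SE 0.136 and a 95% confidence interval of -0.69 to -0.10 (edgeR adjusted p = 0.0404), which is 1.31-fold lower. Within libraries 1 to 3 it was -0.32 (adjusted p = 0.00114) and within libraries 4 to 6 it was -0.50 (adjusted p = 0.0211). The call was lost with scaling by totals alone (-0.23, edgeR adjusted p = 0.170), on the log2(TPM + 1) scale (-0.12, limma adjusted p = 0.598), with no filter on low counts (-0.40, edgeR adjusted p = 0.0989) and without TLCP libraries 4 and 5 (-0.35, adjusted p = 0.136). Relative to the median of all genes, which the first 2 of these scales moved, Slamf6 was at -0.40 and -0.37, against -0.39 with TMM. Taking off the median centres the bulk of genes as TMM does, so these values are no separate check of the lost calls. Leaving out any one of TLCP libraries 4 and 5 or Tfh libraries 1, 2, 3 and 4 also raised the adjusted p above 0.05, to between 0.0625 and 0.0848 (edgeR). All these lost calls came from fits without pairing by number. With the replicate number as a block Slamf6 was at -0.41 (edgeR adjusted p = 1.2e-05), and without it DESeq2 gave -0.38 (DESeq2 adjusted p = 0.00735). The pairing by number is inferred.

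Ly9 (CD229) and Cd84, both self-binding receptors with SAP-binding tails, did not pass the test. Ly9 ranged from 144 to 165 CPM in TLCP (median 160) and from 144 to 175 CPM in Tfh (median 164), and the ranges overlapped almost entirely. Its log2 fold change was -0.04 (95% confidence interval -0.17 to 0.09, edgeR adjusted p = 0.658). Cd84 ranged from 208 to 242 CPM in TLCP (median 236) and from 176 to 263 CPM in Tfh (median 229), with a log2 fold change of 0.02 (95% confidence interval -0.16 to 0.20, edgeR adjusted p = 0.902). For both genes the log2 difference within the numbered pairs was below 0 in pairs 1 to 3 and above 0 in pairs 4 to 6, from -0.11 to 0.06 for Ly9 and from -0.17 to 0.43 for Cd84. That difference between the sets was not tested. With totals alone Ly9 was at 0.13 and on the log2(TPM + 1) scale at 0.25, and neither passed. Relative to the median of all genes on the same scale these are -0.038 and -0.0023. The median of all genes moved the same way, and which scale suits these cells better was not tested.

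Libraries 4 to 6 differed from libraries 1 to 3 in the same genes. In both populations the CPM ranges of these sets did not overlap for Slamf1, Cd48, Slamf6, Slamf7 and Sh2d1a, and in each of the 5 the direction was the same in TLCP and in Tfh. Over all genes tested, 6.25% had ranges apart in the same direction in both populations, with 18% apart in TLCP and 28.7% in Tfh. Slamf7 was 51.0 ± 4.16 CPM in libraries 1 to 3 and 98.5 ± 6.51 CPM in libraries 4 to 6 of TLCP, and 17.1 ± 1.38 and 24.3 ± 3.34 CPM in Tfh (SD, n = 3 each). Sh2d1a was 95.1 ± 5.69 and 63.6 ± 9.22 CPM in TLCP and 224 ± 18.4 and 170.5 ± 8.32 CPM in Tfh. In all 5 genes libraries 4 to 6 moved, within either population, the way TLCP moved relative to Tfh. Cd84 and Ly9 stood apart between the sets in Tfh alone, where Cd84 was 258 ± 7.35 and 196 ± 17.7 CPM. What libraries 4 to 6 share is not given in the labels, and no test of the sets was made.

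Set against each other per length, as deposited TPM, the receptors had a partly different order in the populations. In TLCP the mean TPM was 331 for Cd48, 125 for Ly9, 95.8 for Cd84, 86.5 for Slamf6, 43.4 for Slamf7, 41.3 for Slamf1 and 37.4 for Sh2d1a. In Tfh it was 197 for Cd48, 106 for Ly9, 95.4 for Slamf6, 79.2 for Cd84, 78.1 for Sh2d1a, 15.6 for Slamf1 and 9.69 for Slamf7. Among neighbours in this order, the ranges over the 6 TLCP libraries overlapped between Cd84 and Slamf6, between Slamf7 and Slamf1, and between Slamf1 and Sh2d1a. Over those of Tfh they overlapped from Ly9 down through Slamf6 and Cd84 to Sh2d1a, and between Slamf1 and Slamf7. Sh2d1a stood among the abundant receptors in Tfh and with the least abundant ones in TLCP.

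Shares within a library do not depend on how libraries are scaled. Of the summed TPM of the 6 receptors, Slamf1 and Slamf7 made up 5.63% ± 1.06 and 5.86% ± 1.77 in TLCP and 3.12% ± 0.42 and 1.95% ± 0.471 in Tfh (SD, n = 6 each). Slamf6 made up 12.3% ± 3.20 in TLCP and 18.8% ± 1.92 in Tfh, and Cd48 45.4% ± 3.67 and 39.5% ± 3.41. The Slamf6 share was 7.46% to 15.7% over TLCP libraries and 16.1% to 21.1% over Tfh libraries, so the shares did not overlap although the CPM values did. A share also depends on the sum, which was 567 to 887 TPM in TLCP and 392 to 657 TPM in Tfh. That sum, unlike a share, falls where the ribosomal RNA-like gene takes more of a library. Slamf6 TPM itself was 66.2 to 114 in TLCP and 67.6 to 138 in Tfh, and these ranges overlapped. Slamf6 had 1.05 to 3.75 times the TPM of Slamf1 in TLCP and 4.32 to 7.86 times in Tfh. Sh2d1a TPM divided by the summed TPM of the 5 receptors that have a cytoplasmic tail (all but Cd48) was 0.0682 to 0.123 in TLCP and 0.221 to 0.301 in Tfh. The 5 include Slamf7, with a mean of 43.4 TPM in TLCP and 9.69 in Tfh. Which of these tails bind SAP was not examined. These ratios are descriptions, with no test.

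**Figure D2:**
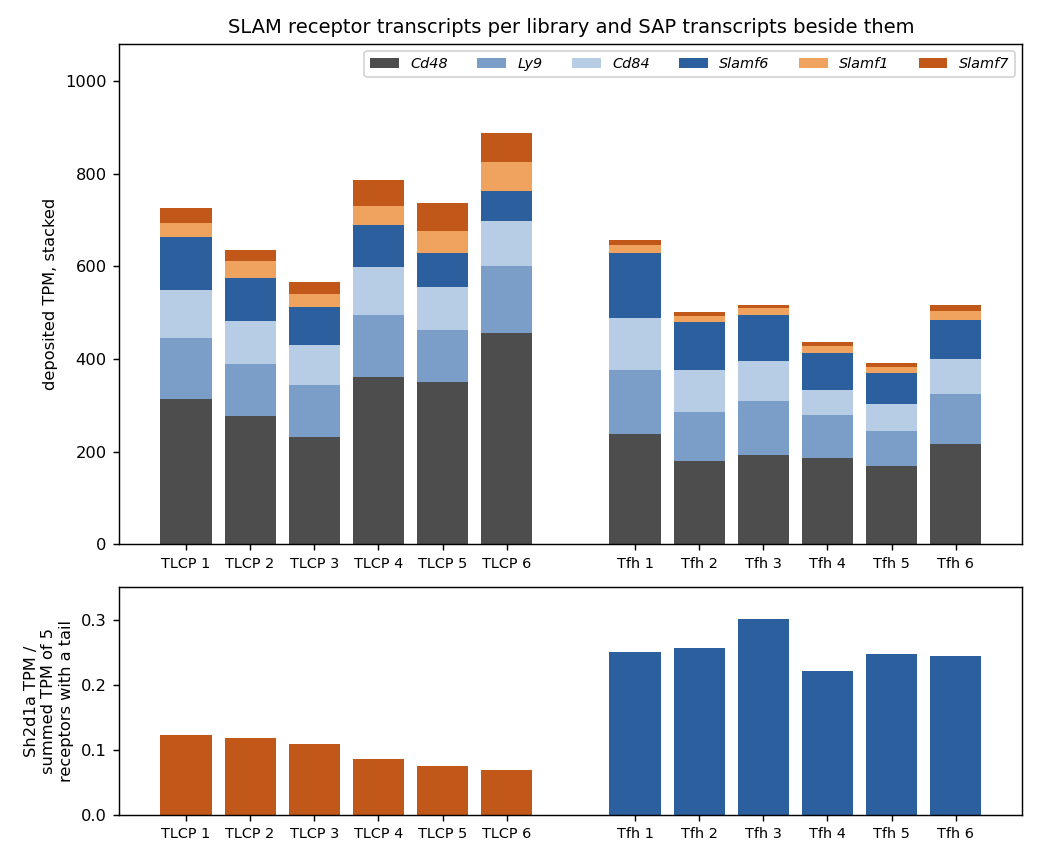
Deposited TPM of the 6 receptors stacked by library (upper panel, y axis from 0) and the ratio of Sh2d1a TPM to the summed TPM of the 5 receptors with a cytoplasmic tail (lower panel, y axis from 0, TLCP in orange and Tfh in blue), for TLCP and Tfh libraries 1 to 6 along the x axes. Slamf1 and Slamf7 take a larger part of the stack in TLCP, and the ratio is 0.0682 to 0.123 in TLCP and 0.221 to 0.301 in Tfh.

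Of the other genes listed with the family, Cd2, which lies on chromosome 3, was abundant and the rest were scarce. Cd244a, the receptor for CD48 on NK cells, averaged 2.56 ± 1.08 CPM in TLCP against 0.706 ± 0.443 in Tfh (SD, n = 6 each) and had 2 to 37 counts per library. It was higher in TLCP by 1.89 on the log2 scale (SE 0.463, edgeR adjusted p = 0.00361). Its annotated span covers all 18787 bases of Ly9 on the other strand, and counts on the strand opposite to the gene made up 2.83% to 4.19% of the counts on both strands. How many of the Cd244a counts come from Ly9 was not tested. Slamf8, a receptor of macrophages, had 0 to 31 counts and did not pass (log2 fold change 1.24, adjusted p = 0.142). Slamf9 and Sh2d1b1, the gene of the SAP-related adaptor EAT-2, had too few counts to be tested, at most 7.95 and 1.72 CPM. Sh2d1b2, a second gene of that kind, had 0 counts in all 12 libraries, where a count of 0 allows up to 0.236 to 0.432 CPM (3 counts of the total, counting error only). Cd2, the T cell receptor for CD48, was abundant and lower in TLCP, at 348 ± 14.5 against 425 ± 24.5 CPM (log2 fold change -0.29, SE 0.0556, edgeR adjusted p = 0.000455). With totals alone and on the log2(TPM + 1) scale Cd2 was not called.

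Of 16 genes that act with SAP and Fyn, all tested, 8 were lower in TLCP, 1 was higher and 7 did not pass, beside 16.4% and 16.8% of all genes lower and higher, with a median log2 fold change of -0.16 against -0.0041 over all genes. Plcg1, the phospholipase downstream of the T cell receptor, averaged 239 ± 27.7 CPM in TLCP against 404 ± 7.40 in Tfh (log2 fold change -0.76, SE 0.0711). Fyn itself was 526 ± 57.4 and 794 ± 17.3 CPM (log2 fold change -0.59, SE 0.0672, edgeR adjusted p = 1.2e-06), and Prkcq, the protein kinase C theta gene, had a log2 fold change of -0.53 (SE 0.0666). The genes that fell also included Lck, Lcp2, Bcl10, Malt1 and Lat, which act in T cell receptor signaling as well, and Pik3cd, a phosphoinositide kinase gene, was the one that rose (log2 fold change 0.24, SE 0.0628). T cell markers fell beside them, by a median of -0.46, and whether these falls are linked was not tested. With totals alone 5 of the 16 were lower and 3 higher, beside 7.43% and 26.7% of all genes. On the log2(TPM + 1) scale 1 was lower and 3 higher, beside 3.71% and 24.9%. With the replicate number as a block 8 were lower and 2 higher, where 18% and 19.1% of all genes were.

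Of 8 genes of the inhibitory side of SLAM and Fyn signaling, 5 were higher, 1 was lower and 2 did not pass, beside 16.8% and 16.4% of all genes higher and lower. The median log2 fold change was 0.30. These counts were the same with totals alone and on the log2(TPM + 1) scale, where 26.7% and 24.9% of all genes were higher. Ptpn11, which encodes the phosphatase SHP-2, was the lower one. It averaged 231 ± 39.5 CPM in TLCP against 758 ± 49.8 in Tfh, 3.29-fold lower (log2 fold change -1.72, SE 0.0955, edgeR adjusted p = 3.5e-10). Pag1, a membrane adaptor that holds the kinase Csk near Fyn and Lck, was 102 ± 7.84 and 67.4 ± 12.3 CPM (log2 fold change 0.60, SE 0.0983), and Dok2, an adaptor that dampens Ras, had a log2 fold change of 0.44 (SE 0.0913). Ptpn6 (SHP-1), Inpp5d (SHIP-1) and Dok1 were the other genes that rose. B cells and plasma cells express several of these genes, their transcripts were higher in the same libraries, and their part was not tested.

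**Figure D3:**
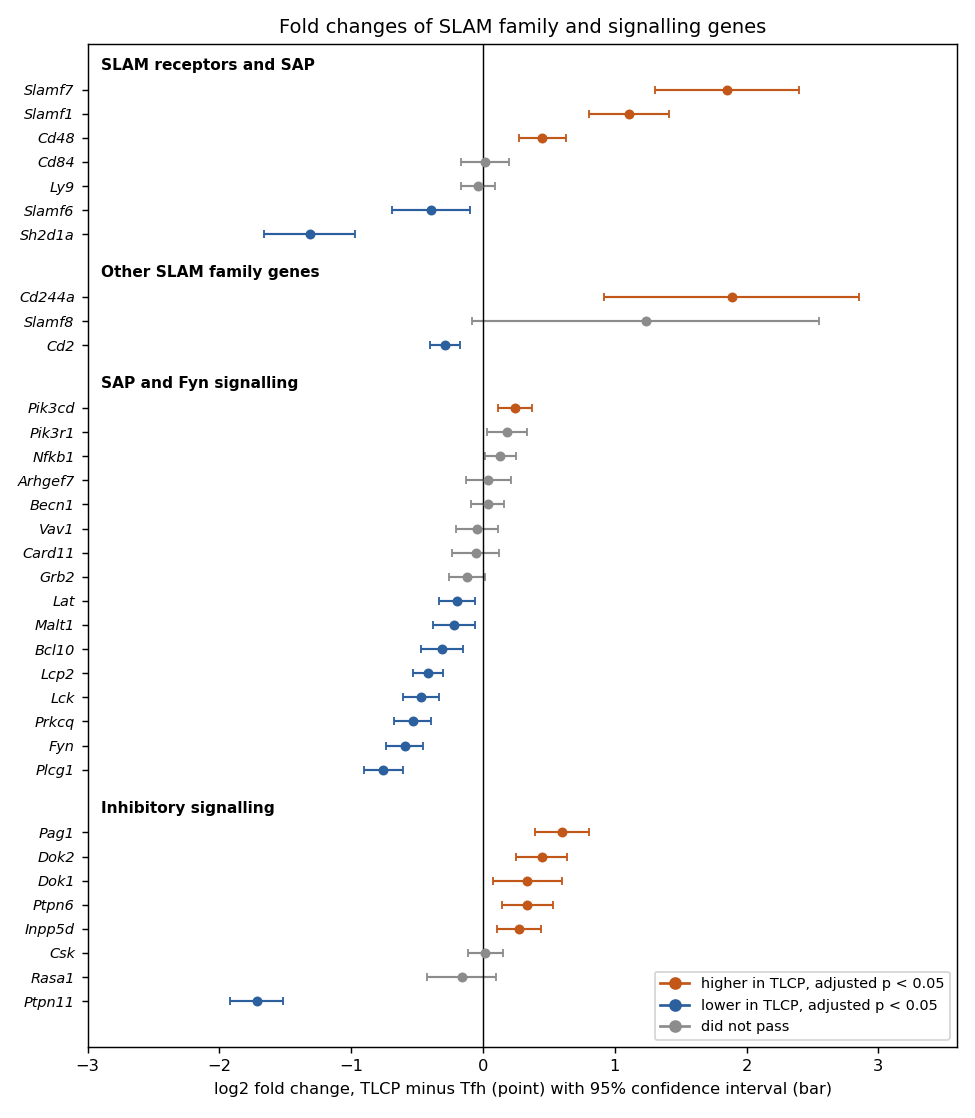
Log2 fold change, TLCP minus Tfh (x axis), with its 95% confidence interval for each tested gene listed with the SLAM family (Cd2 among them) or in the signalling lists (y axis), coloured by whether it was higher (orange), lower (blue) or did not pass (grey) at an adjusted p of 0.05. Sh2d1a and Ptpn11 lie far to the left, Slamf7 and Slamf1 to the right, and the interval of Slamf6 ends at -0.10.

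For context, 10 genes of Tfh identity and help were listed, of which Cxcr5 and Pdcd1 were used in the sort. Of the 10, 8 were lower in TLCP, 0 were higher and 2 (Icos and Maf) did not pass, beside 16.4% of all genes lower. Their median log2 fold change was -1.45. Cd40lg, the ligand that activates B cells, averaged 62.6 ± 8.31 CPM in TLCP against 151 ± 17.3 in Tfh (log2 fold change -1.28). Ascl2, a transcription factor of Tfh cells, averaged 0.462 ± 0.352 against 8.90 ± 2.45 CPM, and Pdcd1, the PD-1 gene, had a log2 fold change of -3.12.

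The annotation lists 19 genes that lie in or overlap the 365 kb between the outer ends of Ly9 and Slamf6, and 10 had enough counts to be tested. Cd244a, one of them, begins outside this stretch. Of the 10, 5 were higher and 1 was lower in TLCP, beside 16.8% and 16.4% of all genes. The 10 include the 6 receptors, so Slamf7, Slamf1, Cd48 and Slamf6 are counted again here. The other higher genes were Cd244a and Gm37010, both with few counts. Among the 5 neighbours on each side, 4 were tested, 0 were higher and 1, Copa, was lower (log2 fold change -0.18). Slamf7 (1.85) and Ly9 (-0.04) are neighbours, and Slamf1 (1.11) and Cd84 (0.02) are neighbours too, so receptors that differed lie next to receptors that did not pass. Gm37010, a transcript inside Cd48 on the same strand, was higher (log2 fold change 1.27) at 1.67 CPM, and whether its reads come from unspliced Cd48 was not tested.

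**Figure D4:**
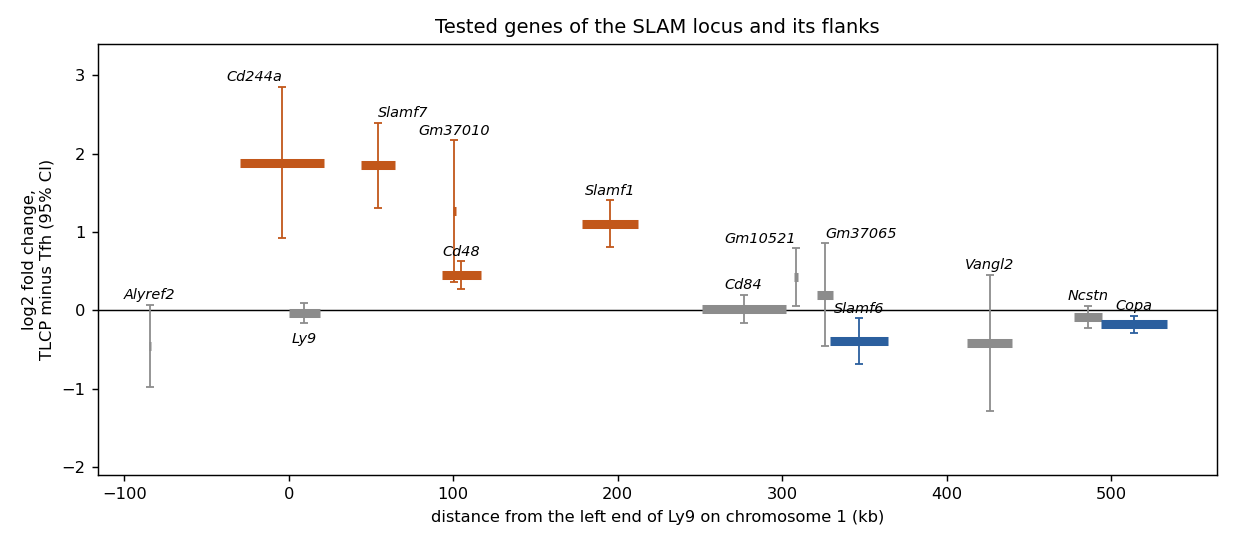
Log2 fold change, TLCP minus Tfh (y axis, with 95% confidence interval) of the tested genes in and beside the SLAM locus, drawn as horizontal bars over each gene's span in kb from the left end of Ly9 (x axis), in orange where higher, blue where lower and grey where the gene did not pass. Higher genes stand at Cd244a, Slamf7, Cd48 and Slamf1, and the right part holds Cd84 near 0 and Slamf6 below it.

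The genes whose log2 CPM followed each of the 5 called genes most closely over the 12 libraries are given as a description, with Pearson correlations over 7828 candidate genes. The population difference and the sets of libraries enter all of these correlations. Sh2d1a was most like Ntrk3, a neurotrophin receptor gene (r = 0.99), and Ehd3, an endocytic trafficking gene (r = 0.99). Slamf7 was most like Hsp90b1 and Pdia4, chaperones of the endoplasmic reticulum that secretory cells make in quantity (r = 0.98 each). For these genes r was 0.97 and 0.96 within the 6 TLCP libraries and 0.57 and 0.80 within the 6 Tfh libraries. For the other 8 pairs r was 0.91 to 0.99 within TLCP and 0.83 to 0.97 within Tfh. Slamf1 was most like Septin11, a cytoskeletal gene (r = 0.99), and Nabp1, a single-stranded DNA-binding protein gene (r = 0.98). Cd48 was most like Crybg1 and Septin11 (r = 0.97 each). Slamf6 was most like Ppm1b, a phosphatase gene (r = 0.96), and Cd28, the costimulatory receptor (r = 0.95).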

How the data were processed

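Polyadenylated RNA of 12 libraries was analysed, 6 of TLCP and 6 of Tfh. The deposited files give raw counts in the layout of STAR gene counts, and the stranded column that holds most reads was used. Rows that name no gene (44.9% to 56.4% of reads) were left out of library sizes and tests. Per the submitters' processing notes, STAR 2.7.1a, DESeq2 1.30.1 and GRCm38 were used. The annotation release was not given in the sources used here, and all 7 genes have the same span in GENCODE M21 as in the files. The authors' deposited table also holds log2 fold changes, p-values and a normalized signal per library. The deposited signal gave back whole reads for 100% of values (tolerance 0.01 reads), of which 100% equalled the counts, and the test on them called 3983 genes, as on the counts. The TPM values are as deposited by the authors, and their totals include a ribosomal RNA-like gene that held 12.9% to 30.9% of counts.

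Counts were tested in R 4.3.3 with edgeR 4.0.16 (filterByExpr, TMM, quasi-likelihood test with robust dispersion, threshold 0.05), on all genes at once. SE was taken as the log2 fold change over the square root of F. Alternatives used DESeq2 1.42.0 and limma 3.58.1, and log2(TPM + 1) was tested for genes with at least 1 TPM in 6 libraries. The method was tested on simulated data. The members, lists and alternatives were chosen with earlier results of these data known. The text names the 7 genes, every other tested gene listed with the SLAM family (Cd2 among them), the 3 genes of each signaling list with the smallest p, the 2 most abundant markers of other cells and the 2 genes most like each called gene (at least 10 CPM, without antigen receptor segments, pseudogenes and unnamed gene models). Other genes were named after their values were seen.

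The populations share the numbers 1 to 6. Same-numbered libraries deviated from their population means together, with correlations of 0.127 to 0.318, and were taken as pairs because each was over 0.1. For 9 of the 12 the same-numbered library had the highest correlation. Libraries of different number reached 0.209, so the cut of 0.1 does not by itself tell pairs from other libraries. This pairing is inferred from the data and remains uncertain. The labels do not tie each library to 1 mouse, so p-values measure the spread between these libraries.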

Additional observations from a re-analysis of the deposited data

Results flagged for a closer look

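In 3 of the 76 groups of 6 libraries examined, 1 library stood far from the rest, where chance gives about 1 in 20. Plcg1 was 183 CPM in TLCP library 6 and 244 to 258 CPM in the other TLCP libraries. Cd79b, a B cell gene, was 206 CPM in TLCP library 6 and 47.2 to 101 CPM in the others. Prss34, a basophil protease gene, was 3.34 CPM in Tfh library 4 and 0 to 0.62 CPM in the other Tfh libraries. None of the 7 SLAM genes had such a library.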

How the results depend on the processing

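Slamf1, Slamf7, Cd48 and Sh2d1a kept their direction and passed under all 28 alternatives: RLE, upper quartile and total scaling, DESeq2, limma voom, 2 other filters, unstranded counts, log2(TPM + 1), the replicate block, libraries 1 to 3 or 4 to 6 only, leaving out the ribosomal RNA gene, B and plasma cell genes or TLCP libraries 4 and 5, each library in turn, and, chosen after seeing the data, the recovered reads. Their log2 fold changes ranged from 0.97 to 1.31, 1.57 to 2.04, 0.35 to 0.72 and -1.44 to -1.03. Leaving out each library in turn gave 0.99 to 1.19, 1.72 to 1.96, 0.37 to 0.50 and -1.39 to -1.24. The recovered reads equalled the counts, so that alternative repeats the main fit and could not differ from it.

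Slamf6 lost its call under 10 of the 28: -0.23 with totals alone, -0.40 without a filter, -0.12 on log2(TPM + 1), -0.35 without TLCP libraries 4 and 5, and 6 of the 12 single libraries left out (range over all 12, -0.46 to -0.31). The number of genes lower in TLCP was then 1 in place of 2. Ly9 was 0.13 with totals alone and 0.25 on log2(TPM + 1), where the median of all genes was 0.17 and 0.25, and it changed sign in libraries 4 to 6 (0.012). Cd84 changed sign in libraries 1 to 3 (-0.12) and with any one of TLCP library 2 or Tfh libraries 4, 5 and 6 left out (range over all 12, -0.048 to 0.060). Neither passed anywhere. Totals alone and log2(TPM + 1) gave 0 lower genes among the other genes listed with the SLAM family, where Cd2 had been the lower one. They gave 3 higher genes among the SAP and Fyn genes, with 5 and 1 lower.

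With the replicate block (pairing by number) the values were 1.08 for Slamf1, 1.80 for Slamf7, 0.44 for Cd48, -1.33 for Sh2d1a and -0.41 for Slamf6 (adjusted p = 1.2e-05, against 0.0404 without it). It changed no call of the 7 genes and moved 5 counts of higher genes: SAP and Fyn genes from 1 to 2, B cell genes from 8 to 9, myeloid genes from 2 to 3, CD8, NK and NKT genes from 0 to 1 and genes of the locus from 5 to 6. The cause of these changes was not tested.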
